A study of Mus musculus with 14 samples.

Results

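The translation initiation factor genes are the genes of the mouse expression array whose printed name begins with Eif1 to Eif6, without the Y-linked Eif2s3y and the Eif2ak kinases. They comprised 53 of the 34821 gene names on the array, measured by 87 probes of 60 bases. One value was kept per gene, that of its brightest probe, and 51 of the 53 passed the filter on dim probes and entered a fit over 20415 genes. The rule for choosing genes used their names only, and no measured value, but it was set with earlier results of these data known.

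RNA came from B-1a cells, the innate-like CD5+ B lymphocytes of the body cavities, taken from the peritoneum of Bmi1 KO mice and of wild-type (WT) mice with no treatment named. The comparison asked how loss of Bmi1, a Polycomb protein, altered gene expression in these cells. The study held 7 KO and 7 WT samples from 2 sets of experiments. No label assigns a sample to a set, so the sets were inferred here from the 2 numbering styles of the sample titles. This gave set 1 with 3 of each genotype and set 2 with 4. The allele, the cells that carry the deletion, and the strain, age and sex of the mice are not stated in the labels used here. Nothing states that samples came from separate animals, so the p-values cover only the variation among these samples, technical variation included.

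Initiation factors bring the initiator tRNA and the start codon together in the ribosome. eIF2 carries the initiator tRNA, eIF2B recharges eIF2 with GTP, eIF3 and eIF1 hold the small subunit open for scanning, and the eIF4F complex recruits capped mRNA. eIF5 and eIF5B complete the joining of the subunits. Growth signals act on this machinery through mTORC1, which phosphorylates the eIF4E-binding proteins, and cell stress acts on it through kinases that phosphorylate eIF2.

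Levels are the log2 processed signal of a probe minus the 75th percentile of its array, so each step of 1 is a doubling, and levels of different probes are not compared. A difference is the KO mean minus the WT mean in a limma model with the experiment set as a term, called at an adjusted p under 0.05 over all 20415 genes. "Above background" means that the scanner software marked the spot as well above background.

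Several arrays stood apart before any gene was considered. Between 20.6% and 36.8% of all probes were above background on 4 KO arrays (set 1 replicate 4 and set 2 replicates 1, 2 and 3), against 52.4% to 56.7% on the other 3 KO arrays and 43.5% to 63.3% on the WT arrays. These are called the 4 dim KO arrays. The 2 probes named Bmi1 were not lower in KO, with a fitted difference of 1.09 ± 0.89 (SE, adjusted p = 0.517) for the brighter one. The dimmer one was higher in KO, with a median level of -0.16 (-3.15 to 2.62) against -4.73 (-5.32 to -2.19) in WT. It was above background on 5 KO and 3 WT arrays. Where the 2 probes lie relative to the deletion is not given, so they do not check the labels, and KO and WT are used here as the labels give them. All 8 B cell markers were above background on most arrays of both genotypes. Of the 5 B-1a markers 4 were so in KO and 5 in WT: Bhlhe41 on 4 KO and 7 WT arrays with mean levels of -0.23 and 4.38, Cd5 on 3 and 6, Spn on 5 and 7, Ctla4 on 6 and 7 and Zbtb32 on 5 and 6. Of 8 macrophage markers 5 were above background on most KO arrays and 6 on most WT arrays. The log2 of their summed signal was 8.24 to 13.5 in KO and 8.66 to 10.1 in WT, and 3.16 to 10.4 and 3.37 to 7.61 without Itgam, their brightest gene, which peritoneal B-1 cells also express. Most KO arrays had 4 of 6 T cell markers, 3 of 5 plasma cell markers, 1 of 5 mast cell markers, 1 of 5 neutrophil markers and 0 of 4 mesothelium markers above background, and most WT arrays 5, 4, 2, 1 and 0. The log2 of the summed signal in KO and WT was 1.25 to 4.68 and 1.20 to 3.02 for the T cell list, 2.48 to 8.77 and 2.65 to 4.23 for plasma cells, -0.19 to 3.99 and 0.90 to 3.56 for mast cells, 3.60 to 7.03 and 3.60 to 5.44 for neutrophils, and -3.53 to 1.37 and -3.68 to -0.61 for mesothelium. Cd4, Prdm1, the macrophage genes Emr1 and Csf1r and the neutrophil gene Ly6g were above background on all arrays. S100a8 and Mpo, also neutrophil genes, were so on none. The part of other cells in the results below was not tested.

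The KO and WT samples did not differ past the threshold in any initiation factor gene. Of the 51 genes, 0 were called higher and 0 lower in KO, where 0.00490% and 0.0196% of all genes tested were called in these directions. The lowest adjusted p among them was 0.315, for Eif4e. At an unadjusted p under 0.05, 9 of the 51 were higher and 4 lower in KO, against 10.0% and 4.23% of all genes, which is 2051 and 863 genes. The 9 were Eif4e, Eif4g3, Eif4a1, Eif4e2, Eif2b4, Eif3e, Eif3g, Eif3m and Eif3d, so that 4 were in the group of eIF4F and related genes and 4 in eIF3. The 4 lower genes were Eif2c3, Eif3j1, Eif5b and Eif4ebp3. Without the 4 dim KO arrays, a choice made after seeing the data, 0 were higher and 3 lower at that p, against 1.91% and 3.79% of all genes. With quantile normalization 3 were higher and 5 lower, against 7.34% and 8.18%. A total of 4 of the 51 passed the filter through their WT arrays alone (Eif2b4, Eif2c3, Eif4e3 and Eif5b), as 21.7% of all genes tested did, so their KO values are mostly signal not above background. No gene had KO arrays that lay wholly outside the range of the WT arrays, which 0.236% of the genes with no missing value did.

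The share of differences above 0 lay near that of all genes in the main scaling and below it with quantile normalization. The difference was above 0 in 31 of the 51, or 60.8%, against 65.2% of all genes. Their median difference was 0.30 on the log2 scale, and the median over all genes was 0.47, so 23 of the 51 lay above the array-wide median. Both medians turned negative, to -1.04 and -0.87, when each array's percentile was taken over the probes that had signal on all 14 arrays, called the shared-probe scaling below, and with quantile normalization they were -0.83 and -0.06. Under the shared-probe scaling 1 gene was higher and 5 were lower at an unadjusted p under 0.05 (1.96% and 9.80%), against 0.887% and 17.1% of all genes. At an adjusted p under 0.05 the split over all genes was 1 higher against 60 lower there, in place of 1 against 4. That scaling lowered the difference of every gene with no missing value by the same 1.34, so that 10 of the 51 differences (19.6%) stayed above 0 under it, against 16.7% of all genes. With quantile normalization 17 of the 51 (33.3%) were above 0, against 47.5% of all genes. Without the 4 dim KO arrays the medians were -0.04 for the initiation factor genes and -0.07 for all genes.

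**Figure D1:**
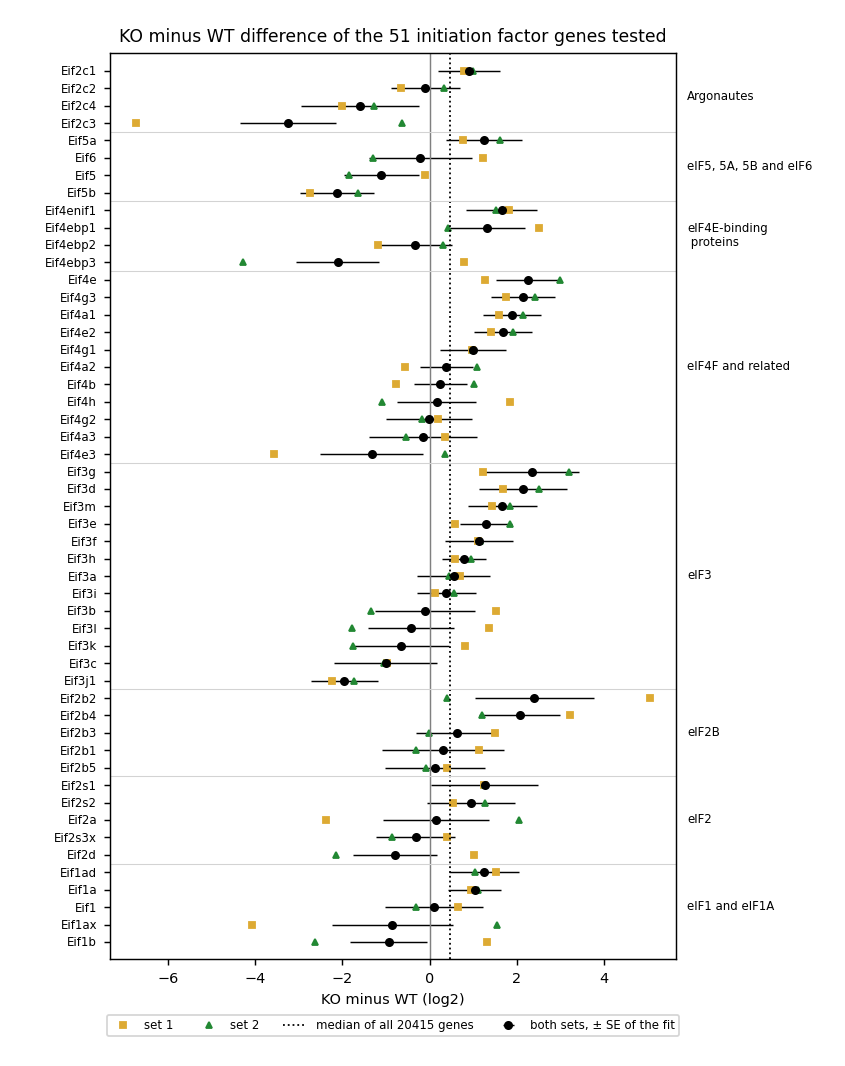
KO minus WT differences (log2) of the 51 genes, grouped by role, with the standard error of the fit (black) and the differences in set 1 (squares) and set 2 (triangles). The dotted line is the median of all genes at 0.47, and the genes lie on both of its sides in every group.

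The initiation factor genes varied more between KO arrays than between WT arrays. The median SD over the 7 KO arrays was 2.42, against 0.91 over the 7 WT arrays, and 98.0% of the genes had the larger SD in KO. The same held for most genes of the array, with medians of 1.83 and 1.03 and 86.8% larger in KO. On the 3 KO arrays that were not dim, the median SD of the initiation factor genes was 0.73 and that of all genes 0.92.

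The signal of the initiation factor genes dropped out on the dim arrays gene by gene. Of the 53 genes, 47 to 52 were above background on each WT array. The counts in KO were 48, 51 and 45 on set 1 replicates 2, 3 and 4, and 38, 28, 34 and 49 on set 2 replicates 1 to 4. The KO mean of 41.9 ± 8.67 (SD, n = 7) and the WT mean of 49.7 ± 2.14 (SD, n = 7) differed with p = 0.0257 in a two-sided exact permutation test within sets. As a share of genes tested, 81.0% ± 16.3 of the initiation factor genes were above background in KO and 96.6% ± 3.71 in WT (SD, exact permutation p = 0.0114), against 71.6% ± 18.9 and 88.7% ± 7.22 of all genes (exact permutation p = 0.0386). Genes entered the fit by the same marks, 4 of the 51 through WT arrays alone and 0 through KO arrays alone. Over all genes these counts were 4437 and 475. For 51 of the 53 genes, the number above background per array was taken on the same kept probes. The p-values of that number and of these shares thus describe a filtered set and do not test detection. Over all probes, with no filter, the shares were 40.6% ± 14.4 in KO and 52.3% ± 7.23 in WT (SD, exact permutation p = 0.0457). Of the 51 genes in the fit, 33 (64.7%) were above background on fewer KO than WT arrays, 18 (35.3%) on equally many and 0 on more, where the shares of all genes tested were 60.7%, 34.4% and 4.90%. Outside the fit, Eif5a2 was above background on more KO than WT arrays.

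**Figure D2:**
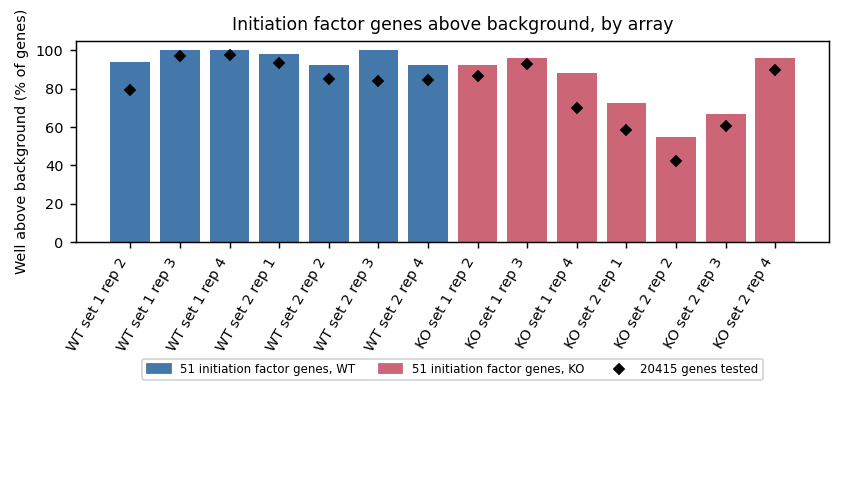
Share of the 51 initiation factor genes (bars, % above background) and of all 20415 genes tested (diamonds) on each array, WT in blue and KO in red. The bars fall to 54.9% on KO set 2 replicate 2, and on every array they lie above the diamonds.

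The genes that dropped out were in part shared between the dim arrays. Of the 44 genes above background on all 7 WT arrays, 4 were not above background on KO set 1 replicate 4, 8 on KO set 2 replicate 1, 16 on replicate 2 and 11 on replicate 3. Of these, 3 of 4, 6 of 8, 5 of 16 and 6 of 11 were also missing on another dim array, which is 75%, 75%, 31.2% and 54.5%. The same shares over all genes tested were 94.1%, 85.4%, 64.1% and 80.6%. No test of this overlap was made. On KO set 2 replicate 4, which was not dim, 0 of the 44 were missing. On replicate 2 these included Eif3a, Eif3b and Eif3c, large subunits of the eIF3 core, and Eif4g1, the scaffold of eIF4F. On replicate 3 they included Eif2s1, the eIF2 subunit that stress kinases phosphorylate, Eif1, and Eif4a3, a helicase of the exon junction complex. Eif3c illustrates the pattern, with a level of 5.62 to 7.02 on the WT arrays, but -1.66 at the lowest and 8.92 at the highest in KO. Over the 4 dim KO arrays, 17 of the 53 genes were above background on all, 19 were missing on 1 array, 6 on 2, 8 on 3 and 3 on 4. The middle 50% of the genes spanned 7.97, 8.28 and 7.68 log2 units on set 2 replicates 1, 2 and 3, and 3.19 to 3.98 on the other 11 arrays.

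**Figure D3:**
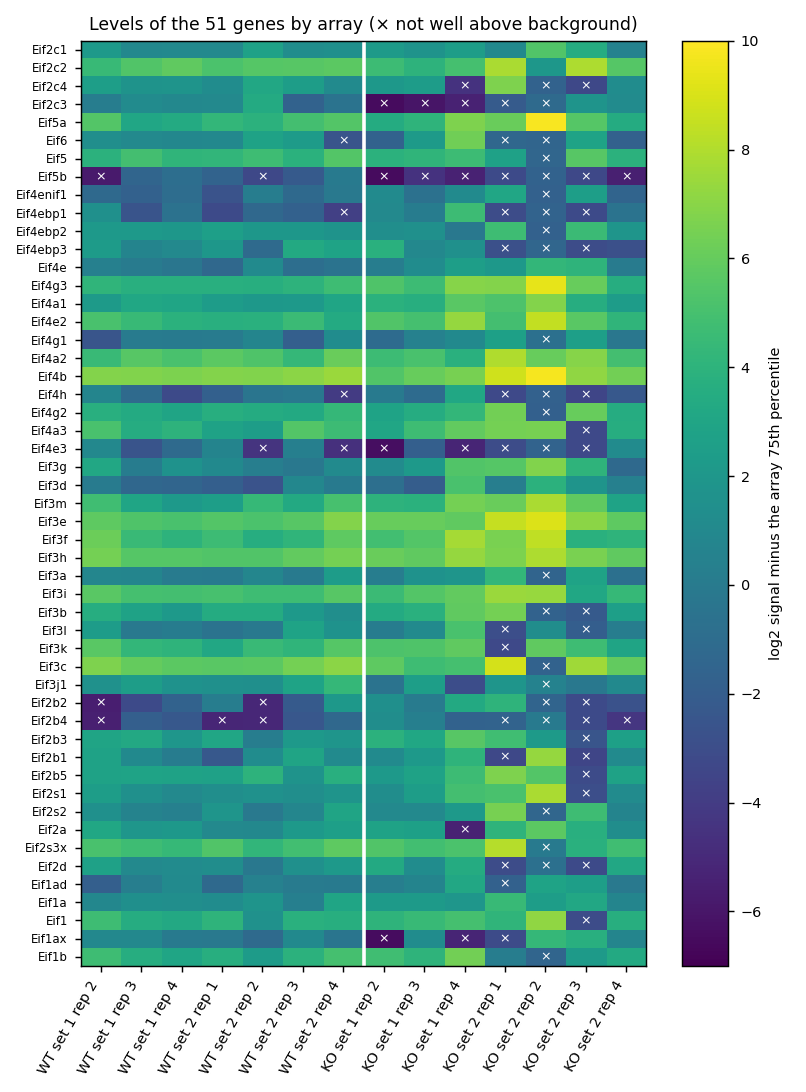
Level of each of the 51 genes (rows, in the same order of roles as the differences) on each of the 14 arrays, as log2 signal minus the 75th percentile of the array, with a cross where the gene was not well above background. Crosses gather on KO set 1 replicate 4 and KO set 2 replicates 1 to 3, while other genes on the same arrays are at their highest.

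The 17 genes above background on all 14 arrays included Eif3d, Eif3e, Eif3f, Eif3g, Eif3h, Eif3i and Eif3m of eIF3 and Eif4a1, Eif4a2, Eif4b, Eif4e, Eif4e2 and Eif4g3 of eIF4F and related genes. Of these 17 differences 16 were above 0, which is 94.1%, and 93.8% of the 5880 genes of the array with signal on all arrays were also above 0. Their median of 1.25 stood beside 1.07 for those 5880 genes. Signal on every array was a condition for being in this group, so the counts describe it and support nothing.

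The eIF4F complex binds the mRNA cap and unwinds the leader. The group tested with it holds its subunits, their helpers and relatives with other roles, such as Eif4a3 and Eif4e2, and 8 of its 11 genes had differences above 0 (4 under the shared-probe scaling) and 0 were called. The group's median was 0.39. Eif4e encodes the cap-binding subunit itself. Its level was 0.18, 1.24 and 2.55 on KO set 1 replicates 2, 3 and 4 and 2.07, 4.28, 4.08 and 0.05 on KO set 2 replicates 1 to 4. In WT it was 0.42, 0.09 and -0.34 in set 1 and -1.27, 1.12, -0.83 and -0.51 in set 2. Here 5 KO arrays lay above all WT arrays, and 2 lay within their range. The difference was 2.25 ± 0.74 (SE, adjusted p = 0.315), was 1.27 in set 1 and 2.99 in set 2, and stayed above 0 under every alternative, at its lowest 0.56 without the 4 dim KO arrays.

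Eif4a1 encodes the main RNA helicase of the complex. It was picked out after its values were seen, because 6 of 7 KO arrays lay above all WT arrays. Its WT levels ran from 2.04 to 3.14 with a median of 2.38, and its KO levels from 2.41 to 6.83 with a median of 3.87. KO set 2 replicate 4 was the array within the WT range. The difference of 1.90 ± 0.66 (SE, adjusted p = 0.324) became 0.58 without the 4 dim KO arrays and 0.56 under the shared-probe scaling. Its paralogue Eif4a2 had a difference of 0.39 ± 0.60 (SE) on its brightest probe, with -0.55 in set 1 and 1.09 in set 2. On its other probe, at base 2907 of a different transcript entry, the difference was 1.84 ± 0.68 (SE, adjusted p = 0.392 in the limma fit over all probes). The KO levels there ran from 2.25 to 7.31 and the WT levels from 1.99 to 3.12.

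Eif4g3, which encodes a scaffold protein that joins the cap-binding subunit to the helicase, gave differences of opposite sign by probe. Its other probes are annotated to other transcript entries than its brightest one, so the base positions are not on a single scale. The brightest probe, which begins at base 5355 of its own transcript entry, had WT levels of 3.67 to 4.75 and KO levels of 3.60 to 9.34. On this probe 5 KO arrays lay above all WT arrays and 1 below, and the difference was 2.14 ± 0.74 (SE, adjusted p = 0.320). The probe at base 1986 differed by -2.88 ± 1.17 (SE) and the one at base 994 by -2.47 ± 1.05 (SE), while that at base 2600 was at 0.02. The base 1986 probe was above background on 4 KO and 7 WT arrays, and the base 994 probe on 4 and 6. At base 1986 the KO arrays that were not dim were at 3.05, 3.00 and 4.38, against 3.57 to 4.83 in WT. The 4 dim KO arrays were there at -4.20, 5.12, -0.89 and -1.92. With the mean of the Eif4g3 probes the difference was -0.80. Eif4e2, a cap-binding homologue that represses translation, likewise had 1.69 ± 0.67 (SE, adjusted p = 0.348) at base 1141 and -2.17 ± 0.99 (SE) at base 2192, a probe above background on 2 KO and 5 WT arrays. At base 1141, 4 KO arrays lay above all WT arrays, with KO levels from 4.14 to 8.41 and WT levels from 3.39 to 5.12.

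The eIF4E-binding proteins sequester the cap-binding subunit, and 2 of 4 had differences above 0 (1 under the shared-probe scaling). Eif4ebp3 was on opposite sides in the experiments. In set 1 its KO levels of 3.81, 0.97 and 1.55 overlapped the WT levels of 2.30, 0.67 and 0.998. In set 2 its KO levels of -2.86, -1.39, -3.05 and -2.85 all lay below the WT levels of 1.97, -1.13, 3.29 and 2.85. The difference was 0.78 in set 1 and -4.29 in set 2 (unadjusted p of the dependence on the set 0.0043, adjusted p = 0.872), and -2.11 ± 0.96 over both (SE, adjusted p = 0.348). Of the 4 KO arrays in set 2 only replicate 4 was above background, so the set 2 difference is taken mostly against signal not above background. Eif4enif1, the shuttling protein that takes eIF4E into the nucleus, differed by 1.66 ± 0.81 (SE, adjusted p = 0.348), with 4 KO arrays above all WT arrays. Eif4ebp1 and Eif4ebp2 differed by 1.31 ± 0.87 and -0.33 ± 0.86 (SE).

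**Figure D4:**
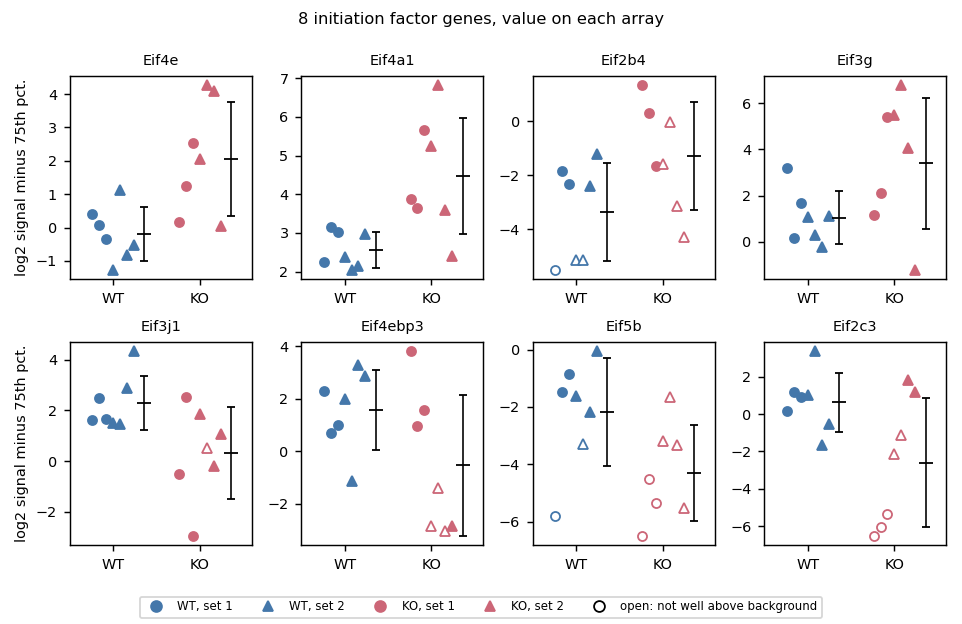
Levels of 8 genes (log2 signal minus the 75th percentile of the array) on each array, WT in blue and KO in red, circles for set 1 and triangles for set 2, with the mean and SD of 7 arrays at the right of each group. Open symbols were not well above background, and in each of the 8 genes the KO and WT arrays overlap.

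eIF3, the multi-subunit scaffold on the small ribosomal subunit, had 13 genes tested, 8 with differences above 0 (3 under the shared-probe scaling) and 0 called. Of the eIF3 genes, Eif3d, Eif3g, Eif3k and Eif3m were picked out after their values were seen. The probes below are shown as examples of differences above and below 0 and, in Eif3k, of different parts of a single transcript. They are the array's own sequences, written on the strand of the mRNA, with mm9 positions from the array annotation. The probes of Eif3j1 and Eif3m and the first of Eif3k cross an exon junction, so their spans are longer than the probe.
Eif3g at chr9:20699095-20699154: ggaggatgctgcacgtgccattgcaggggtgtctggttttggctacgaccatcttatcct
Eif3m at chr2:104840440-104841467: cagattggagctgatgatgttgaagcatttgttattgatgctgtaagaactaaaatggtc
Eif3j1 at chr2:121866905-121867335: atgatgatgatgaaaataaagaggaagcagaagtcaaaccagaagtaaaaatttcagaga
Eif3k, base 103, at chr7:29765540-29766730: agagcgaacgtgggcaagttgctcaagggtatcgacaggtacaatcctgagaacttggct
Eif3k, base 643, at chr7:29757555-29757614: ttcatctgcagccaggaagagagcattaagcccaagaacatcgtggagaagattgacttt

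Eif3g, an RNA-binding subunit, had a level of 1.18, 2.12 and 5.39 on KO set 1 replicates 2 to 4 and 5.49, 6.79, 4.07 and -1.21 on KO set 2 replicates 1 to 4. In WT it ranged from -0.21 to 3.19 with a median of 1.09. The 4 dim KO arrays lay above all WT arrays, KO set 2 replicate 4 lay below them, and the other 2 fell within. The difference was 2.36 ± 1.08 (SE, adjusted p = 0.348) over all arrays and -0.73 without the 4 dim KO arrays. Eif3m, a PCI-domain subunit, also moved toward 0 without the dim arrays, with KO levels from 2.85 to 7.87, WT levels from 2.16 to 5.02, a difference of 1.68 ± 0.78 (SE, adjusted p = 0.348), and -0.03 without those arrays. Eif3d, a subunit that can bind the cap of some mRNAs, differed by 2.15 ± 1.01 (SE, adjusted p = 0.348), with 3 KO arrays above all WT arrays, and by 0.22 without the dim ones.

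Eif3e, a PCI-domain subunit of the eIF3 core, had KO levels of 5.78 to 9.11 and WT levels of 5.12 to 6.86. Of its KO arrays 3 lay above all WT arrays and none below. The difference of 1.30 ± 0.59 (SE, adjusted p = 0.348) was -0.04 under the shared-probe scaling and -0.01 with quantile normalization.

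Eif3j1, a loosely bound subunit near the mRNA entry channel, was the eIF3 gene with the lowest difference. Its level was -0.51, 2.51 and -2.95 on KO set 1 replicates 2 to 4 and 1.85, 0.53, -0.20 and 1.06 on KO set 2 replicates 1 to 4. In WT it lay between 1.45 and 4.34 with a median of 1.67. A total of 5 KO arrays fell below all WT arrays and none lay above them. The difference was -1.95 ± 0.77 (SE, adjusted p = 0.348), with -2.24 in set 1 and -1.74 in set 2, and it was below 0 under every alternative. Its other 2 probes differed by -0.21 and -1.05.

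Eif3k, a peripheral subunit, was picked out after its values were seen, because 3 probes on the same RefSeq transcript gave different results. At base 103 its KO levels were 2.92 to 5.88 on 6 arrays and -3.22 on KO set 2 replicate 1, where the probe was not above background, and its WT levels were 3.18 to 5.68. The difference there was -0.66 ± 1.06 (SE), and 0.47 without that array. At base 643 the KO levels were 4.56, 3.98 and 7.15 in set 1 and 6.02, 9.60, 4.82 and 1.48 in set 2, against 1.33 to 4.67 in WT. At base 713 the KO levels were -0.78 to 7.30 and the WT levels -1.67 to 2.79. The differences at these positions were 2.72 ± 0.997 and 3.61 ± 1.04 (SE), with adjusted p = 0.391 and 0.301 in the limma fit over all probes. At base 643 the 4 KO arrays above all WT arrays were the 4 dim ones, and at base 713 the 4 dim ones and 1 other were. Without the dim arrays the differences were 0.37 and 0.83. On KO set 2 replicate 1 the first probe was thus at its lowest, while the other probes, at 6.02 and 5.63, were above all WT arrays.

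**Figure D5:**
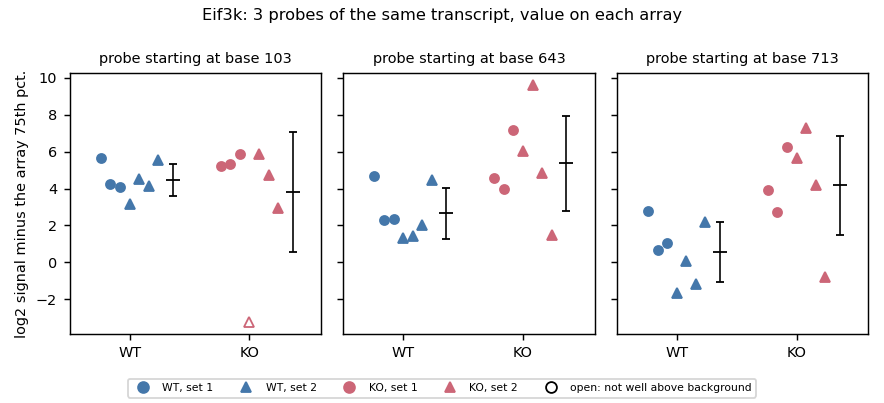
Level of Eif3k (log2 signal minus the 75th percentile of the array) by the 3 probes of its transcript on each array, with the mean and SD of 7 arrays. The probe at base 103 shows WT and KO at similar levels with 1 KO array at -3.22, while at bases 643 and 713 the 4 dim KO arrays lie above all WT arrays, with 1 other KO array at base 713.

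Disagreement between probes was common. Of the 20 genes with several probes past the filter, 11 had differences of both signs, and 2 of these, Eif4g3 and Eif4e2, had both signs at an unadjusted p under 0.05. The median range between the probes of a gene was 1.20 log2 units, and the largest was 5.02 in Eif4g3. Eif2c1 gave 0.91 and -2.21, and Eif5 -1.10 and 1.18. For 30 genes the array holds a single probe, so no such comparison exists.

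The group of eIF2 and initiator tRNA delivery, which holds Eif2a and Eif2d beside Eif2s1, Eif2s2 and Eif2s3x, showed no difference past the threshold. Of the 5 tested, 3 had differences above 0 (0 under the shared-probe scaling), and the lowest adjusted p was 0.590. Eif2s1 and Eif2s2, the alpha and beta subunits, differed by 1.26 ± 1.22 and 0.96 ± 1.004 (SE). Under the shared-probe scaling they differed by -0.08 and -0.38. Eif2s1 ranged from -2.90 to 7.86 in KO and from 0.999 to 2.46 in WT, so its KO arrays lay on both sides of all WT arrays, 4 above and 1 below. The difference without the 4 dim KO arrays was 0.01.

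All 5 eIF2B genes, which encode the exchange factor that reactivates eIF2, had differences above 0 (2 under the shared-probe scaling), and 0 were called. The role's median was 0.63, with 1.497 in set 1 and -0.02 in set 2. Eif2b4, the delta subunit, had a dim probe, above background on 3 KO and 4 WT arrays. Its level was 1.34, 0.31 and -1.67 on KO set 1 replicates 2 to 4 and -1.60, -0.04, -3.16 and -4.30 on KO set 2, against -5.51 to -1.23 in WT. Of its KO arrays 3 lay above all WT arrays, and the difference was 2.07 ± 0.92 (SE, adjusted p = 0.348). Eif2b2, the beta subunit, differed by 2.41 ± 1.36 (SE, adjusted p = 0.374), with 5.07 in set 1, 0.41 in set 2, and 2 KO arrays above all WT arrays.

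The 5 genes of the eIF1 and eIF1A group, which monitor start codon choice, had 3 differences above 0 (0 under the shared-probe scaling) and a lowest adjusted p of 0.387. Eif1a differed by 1.04 ± 0.61 (SE) and Eif1ad, an eIF1A-domain protein, by 1.25 ± 0.79 (SE, adjusted p = 0.413). Under the shared-probe scaling these were -0.30 and -0.09. Eif1ax, on the X chromosome, had -4.08 in set 1 and 1.56 in set 2 and was above background on 4 KO and all 7 WT arrays. Eif1b, a paralogue of eIF1, had 1.32 in set 1 and -2.63 in set 2.

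There were 4 genes with an unadjusted p under 0.05 for a dependence of the difference on the experiment set, against 4.84% of all genes, and 0 passed adjustment, as over all genes. They were Eif2c3, Eif4ebp3, Eif1b and Eif1ax. In Eif2c3 the set 1 KO arrays, and in Eif4ebp3 3 of the 4 set 2 KO arrays, were not above background. In all, 22 of the 51 genes had differences of opposite sign in the sets. The medians in set 1 and set 2 were 0.79 and 0.42 for the initiation factor genes and 0.10 and 0.83 for all genes. Set 1 was hybridised on a slide of its own with both genotypes. In set 2 the 4 KO arrays shared a slide with 2 WT arrays, where the medians were 0.71 and 0.91.

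In the last steps of initiation, eIF5 triggers GTP hydrolysis on eIF2, eIF5B joins the large subunit, and eIF6 keeps free large subunits apart. Of the 4 genes tested in this group 1 had a difference above 0 (0 under the shared-probe scaling). Eif5b was above background on 0 KO arrays and 5 WT arrays. Since no KO array was above background, its KO level is only a bound. The mean WT level was 1.14-fold the mean over KO arrays of the higher of the gene's own signal and the array's lowest signal above background. That WT mean includes arrays not above background. On KO set 2 replicate 2 the lowest signal above background was 0.55, above the highest WT level of -0.05. The ratio is thus no lower limit, and no fall in KO is concluded from it. The measured means were -4.30 in KO and -2.18 in WT (adjusted p = 0.348). Eif5a, an elongation factor despite its name, differed by 1.25 ± 0.87 (SE, adjusted p = 0.450), and by -0.61 without the 4 dim KO arrays. It was also below 0, between -0.09 and -0.12, under the shared-probe scaling and the quantile-based normalizations. Its paralogue Eif5a2 was above background on 2 KO and 1 WT arrays and was left out of the fit (two-sided exact permutation p = 0.0957), as was Eif4e1b, the oocyte form of the cap-binding subunit, with 2 and 2 arrays (exact permutation p = 0.104).

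The 4 genes printed as Eif2c1 to Eif2c4 are older names of the Argonautes Ago1 to Ago4, which carry small RNAs in silencing and are no initiation factors. Eif2c3 (Ago3) was above background on 2 KO and 7 WT arrays, and passed the filter through WT alone. Its KO levels in set 1 were -6.53, -6.03 and -5.36, none above background, against 0.19, 1.19 and 0.94 in WT. The KO level there is thus only a bound. The mean WT level in set 1 was 26.2-fold the mean, over the set 1 KO arrays, of each array's lowest signal above background. Because the gene was kept through its WT arrays, no fall in KO is concluded from this ratio. In set 2 its KO levels were -2.15, -1.13, 1.82 and 1.18, of which the last 2 were above background, against 1.01, 3.38, -1.66 and -0.54 in WT, and the genotypes overlapped. The fitted difference over both sets, -3.25 ± 1.10 (SE, adjusted p = 0.320), is taken mostly against signal not above background, and within the shared slide of set 2 the difference was 0.25. The set 1 KO replicates 2 and 3 were not among the dim ones. Eif2c1, Eif2c2 and Eif2c4 differed by 0.91 ± 0.70, -0.10 ± 0.79 and -1.59 ± 1.35 (SE), the first being -0.43 under the shared-probe scaling.

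Genes that act around initiation had 0 calls in either direction in the same fit. Of 10 genes tested of the eIF2 kinases and their stress response, the median difference was 0.01, and the smallest p belonged to Trib3, a pseudokinase target of ATF4, at 1.78 ± 0.56 (SE, adjusted p = 0.313), followed by Ppp1r15a, a phosphatase subunit that acts on eIF2, at 1.32 ± 0.64 (SE). Of 11 genes in mTORC1 and MAP kinase control, with a median of 0.79, Tsc2, an inhibitor of mTORC1, differed by -2.01 ± 0.78 and Rps6, a ribosomal protein, by 1.46 ± 0.67 (SE, adjusted p = 0.344 and 0.348). Of 11 poly(A), recycling and scanning helpers, with a median of 0.71, Denr, which recycles small subunits, differed by 2.76 ± 0.74 (SE, adjusted p = 0.256) and Pabpc1, the poly(A)-binding protein, by 1.53 ± 0.70 (SE). The 9 elongation and termination factors had a median of 1.36, led by Eef1g and Eef1b2, both subunits of the eEF1B exchange factor, at 1.86 ± 0.76 and 1.86 ± 0.79 (SE, adjusted p = 0.348 for both). Without the 4 dim KO arrays the medians of these lists were -0.11, -0.19, 0.06 and 0.14, in the same order.

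The promoters of Eif4e and Eif4a1 both carry an E-box, and the motif is shown for that reason. RefSeq promoter entries (GRCm38.p6) matched 41 of the 53 genes, and a palindromic E-box, CACGTG, lay in the 250 bases before the start of 9 of them (22.0%), against 6.86% of the 27025 genes with an entry. These 9 include the 2 genes the motif was chosen for, and 7 of the other 39 (17.9%) had it, so the counts are a description with no test. The GC box GGGCGG, on either strand, lay in 32 (78.0% against 35.4%) and CCAAT, on either strand, in 13 (31.7% against 37.5%). A gene with several starts was counted once if any of them held the motif. Eif4e and Eif4a1 are among the 9, as are Eif3k, Eif1b and Eif5a, named above, and also Eif4g1, whose difference was 0.99 ± 0.76 (SE). Windows of 60 bases follow, with the E-box in capitals and each sequence on the gene's own strand.
Eif4e at chr3:138527177-138527236, plus strand: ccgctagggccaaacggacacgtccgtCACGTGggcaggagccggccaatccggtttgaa
Eif4a1 at chr11:69672580-69672639, minus strand: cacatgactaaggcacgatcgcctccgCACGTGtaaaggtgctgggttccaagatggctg
Eif4g1 at chr16:20672646-20672705, plus strand: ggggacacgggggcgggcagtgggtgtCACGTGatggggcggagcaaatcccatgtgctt
The E-box shown begins 64 bases before the annotated start in Eif4e, 189 bases in Eif4a1 and 54 bases in Eif4g1. Eif4e has another, not shown, that begins 228 bases before its start. A match describes these letters only, and no binding was measured.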

How the data were processed

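The deposited scanner files hold the intensity of each Cy3-labelled spot after background subtraction, made by the authors with Agilent Feature Extraction 10.7.3.1 on an mm9 design, per the file headers. The deposited 0 or 1 mark of each spot (a score) gives whether it was well above background. The authors' deposited table of log2 values, normalized by a method not given in the sources used here, has a median of 3.95 on every array and was used as an alternative. Its values correlate at 0.99932 to 0.99999 per array with the quantile normalization made here, so this alternative nearly repeats that one. Control spots and outlier spots were removed, log2 intensities were reduced by each array's 75th percentile, and spots of a probe were averaged. A probe was kept where 4 or more of the 7 KO or of the 7 WT arrays had it above background (29689 of 55681), and the brightest kept probe stood for its gene. limma 3.58.1 (R 4.3.3) fitted genotype with the experiment set as a term, and adjusted p-values are Benjamini-Hochberg values over all 20415 genes. The dependence on the set used a model with 4 group means. Exact permutation tests shuffled genotype within sets (1400 arrangements). The script was tested on simulated data with the same SD in KO and WT, a setting that leaves out the wider spread of the KO arrays here. The number of arrays limits the precision. No 2 arrays were alike beyond a correlation of 0.942.

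The genes given in detail were the 2 of each role with the smallest p and genes with probes of opposite sign at an unadjusted p under 0.05 (17 in all), and 7 more were added after their values were seen. The members, roles and related lists were chosen with earlier results of these data known. Same-numbered KO and WT arrays were not paired, since their correlations ran from -0.23 to 0.18. Alternatives changed the scaling, the background correction, the filter, the probe rule, the batch term and the arrays. Symbols of 4 Argonaute genes were updated through RefSeq accessions.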

Additional observations from a re-analysis of the deposited data

Results flagged for a closer look

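In 52 groups of 7 arrays that were checked for a lone extreme value, 3 had one, where chance gives about 1 in 20. For Eif3k the lowest KO array, set 2 replicate 1, was at -3.22, with a gap to the next array of 0.675 of the group's range. For Eif3e the highest WT array, set 2 replicate 4, was at 6.86, with a gap of 0.620 of the range. For Eif4g3 the same WT array was the highest, at 4.75, with a gap of 0.586 of the range.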

How the results depend on the processing

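The count of initiation factor genes called was 0 in both directions under all alternatives with a test, with adjusted p from 0.104 upward, and 0 depended on the set. Their median difference of 0.30 was -1.04 under the shared-probe scaling and -0.83 with quantile normalization. It was -0.81 in the authors' deposited table, which nearly repeats quantile normalization. With an array left out it ran from 0.06 (without KO set 2 replicate 1) to 0.72 (without KO set 2 replicate 3). With a replicate block it was 0.30, with 0 genes called; the shared numbers do not pair the arrays. At an unadjusted p under 0.05, 4 to 11 genes were higher and 1 to 4 lower with an array left out, the 1 without WT set 2 replicate 4 and the 11 without KO set 2 replicate 4. The counts, 9 and 4 in the main setting, were 1 and 5 under the shared-probe scaling, 3 and 5 with quantile normalization and 0 and 3 without the 4 dim KO arrays. The cause of these shifts was not tested.

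Of the 24 genes given in detail, 14 changed sign somewhere, in 25 of 636 values. Under the shared-probe scaling Eif1a was at -0.30, Eif1ad -0.086, Eif2c1 -0.43, Eif2s1 -0.077, Eif2s2 -0.38, Eif3e -0.039 and Eif5a -0.094. With quantile normalization Eif3e was at -0.014 and Eif5a at -0.12, with normexp Eif5a was at -0.12, and in the authors' deposited table Eif3e was at -0.0062 and Eif5a at -0.11. With the mean of a gene's probes Eif2c1 was at -0.65, Eif3k at 1.89 and Eif4g3 at -0.80, and with probes above background throughout Eif3k was at 2.72. Eif3k ran from -1.14 to 0.47 with an array left out. Without the 4 dim KO arrays, added after seeing the data, Eif1b was at 0.25, Eif2c1 -0.045, Eif2s2 -0.18, Eif3g -0.73, Eif3m -0.033 and Eif5a -0.61. Within slide 2, also added then, Eif1ax was at 0.94 and Eif2c3 at 0.25. Signal limits the 2 genes left out and those near background on the dim arrays.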
